A study of Homo sapiens with 4 samples.

Results

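The 10 genes described here encode the core of the BCL2 family, and their mRNA was measured in MHCC97H cells, an established human hepatocellular carcinoma (HCC) cell line, with and without knockdown of UBXN1. The members were taken by name from the deposited gene table and were BCL2, BCL2L1 and MCL1 (pro-survival), BAX and BAK1 (effectors), and BCL2L11, BBC3, PMAIP1, BID and BAD (BH3-only). All 10 were found among 61541 gene IDs, and all 10 were among the 16863 genes that passed a filter on low counts. The shCon group held 2 libraries of cells with the genotype control, and the shUBXN1 group held 2 libraries of cells given short hairpin RNA (shRNA) against UBXN1. No other treatment, time or dose was named for either group. By the study's methods, the hairpins were carried by a lentiviral vector with shRFP as the control. More than 1 hairpin against UBXN1 was made, and the hairpin in the sequenced cells was not named. Nothing states whether the 2 libraries of a group came from separate cultures, so every p-value measures the spread between these libraries, which may be technical.

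BCL2 family proteins decide whether the outer membrane of the mitochondrion stays closed. The effectors BAX and BAK1 can assemble into pores through which cytochrome c escapes to start the caspase cascade, the pro-survival proteins hold them in check, and the BH3-only proteins are stress sensors that bind the pro-survival proteins or engage the effectors. In hepatocytes, BCL2L1 (Bcl-xL) and MCL1 are the pro-survival members known to keep cells alive, and BID links death receptors to the mitochondrial pathway. Much of the control of this family acts on protein stability, cleavage, phosphorylation and location, none of which was measured here.

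After UBXN1 knockdown, the mRNA of the effector BAX and of the BH3-only gene BAD fell, that of the BH3-only gene PMAIP1 (NOXA) rose, and the pro-survival members were not called. BAX mRNA fell by 36.5%, BAD mRNA fell by 42.6%, and PMAIP1 rose 2.02-fold (n = 2 libraries per group). In bulk RNA, fewer cells with a transcript and less transcript per cell cannot be told apart. BCL2L11 (BIM) fell by 16.8%, but its call was lost under 10 of 16 alternative settings. At an adjusted p of 0.05 (quasi-likelihood test of edgeR, Benjamini-Hochberg adjusted over all 16863 genes tested), 1 of 10 members was called higher, where 28% of all genes tested were. By the same rule 3 of 10 members were called lower, where 28.2% of all genes tested were. The remaining 6 members did not pass. The shares of members called were therefore read against a background in which most genes were called in either direction. At a fold change of 2 with an unadjusted p of 0.05, the thresholds of the study, 1 member was higher (background 11.8%) and 0 were lower (background 6.09%). The libraries of the 2 groups did not overlap in any of the 10 members, which was also true of 78% of all genes tested. The median log2 fold change was -0.0023 over the members and 0.016 over all genes tested, and the median absolute log2 fold change was 0.24 and 0.44.

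UBXN1 itself had 1788 and 1817 counts in the shCon libraries and 416 and 433 in the shUBXN1 libraries, a log2 fold change of -2.03 (SE 0.0963, adjusted p = 9.98e-10 by the quasi-likelihood test of edgeR, Benjamini-Hochberg adjusted). The libraries held between 23373700 and 27380508 counts. Counts on the mitochondrial genome made up 5.28% and 5.59% of the shCon libraries and 7.43% and 8.27% of the shUBXN1 libraries, and their part in the results below was not tested. Of 10 hepatocyte and HCC markers, 9 were detected, with a summed level of 5392 to 5443 TPM (transcript abundance per gene length, scaled to a common total) in shCon and 4637 to 5053 TPM in shUBXN1, and GPC3 was at 0 counts in every library. Most of that sum was KRT8 and KRT18. Of the 9 markers, 2 were called higher, 4 were called lower and 3 were not called. Over all genes tested, 28% were called higher and 28.2% lower. ALB, which encodes albumin, had 479 and 403 counts against 104 and 112 after knockdown and fell by 1.97 on the log2 scale. TTR, which encodes transthyretin, had 38 and 34 counts against 5 and 3 and fell by 3.08. TTR passed the filter only through the shCon libraries, where it is high. KRT8 (-0.44) and HNF4A (-0.30) were also called lower, whereas SERPINA1 (0.40) and KRT18 (0.31) were called higher. Exons of KRT18 share 17.1% of their bases with KRT8 on the opposite strand. AFP, APOA1 and EPCAM were not called. Of 8 markers of other cell types, 4 passed the filter (CD68, PECAM1, COL1A1 and LUM). Their list summed to 133 and 136 TPM in shCon and 119 and 109 TPM in shUBXN1, most of it CD68. The 4 were each called and moved apart. COL1A1 (10 and 4 counts against 58 and 59) had a log2 fold change of 3.11. It passed the filter only through the shUBXN1 libraries, where it is high. The log2 fold change was 0.35 for PECAM1, -1.06 for LUM and -0.25 for CD68. Exons of CD68 share 81.6% of their bases with another annotated gene on the same strand. That gene had 228 and 252 counts in shCon and 339 and 252 in shUBXN1. CD68 was not called without shCon replicate 2 (-0.22) or with total count scaling (-0.16). The part of any marker in the results below was not tested. The remaining markers PTPRC, CDH5, ACTA2 and KRT5 had at most 6 counts in any library.

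The stretches of promoter just upstream of BAX, BAD and PMAIP1 are shown first, since these are the members whose mRNA differed most firmly. They were taken from RefSeq on GRCh38.p14, run 5′ to 3′ on the strand of the gene and end at the base before its first annotated exon. Each held a short motif that binding proteins are known to read, set in capitals: the E-box CACGTG in BAX, and the core TGACGT of a cAMP response element in BAD and, on the opposite strand, where it reads ACGTCA, in PMAIP1. The BAX stretch was chr19:48954625-48954814 (+), the BAD stretch chr11:64284705-64284954 (-) and the PMAIP1 stretch chr18:59899746-59899995 (+).
BAX: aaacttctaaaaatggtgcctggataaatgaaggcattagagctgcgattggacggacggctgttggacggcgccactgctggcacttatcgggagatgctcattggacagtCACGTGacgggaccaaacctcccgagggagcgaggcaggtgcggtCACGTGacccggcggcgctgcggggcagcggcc
BAD: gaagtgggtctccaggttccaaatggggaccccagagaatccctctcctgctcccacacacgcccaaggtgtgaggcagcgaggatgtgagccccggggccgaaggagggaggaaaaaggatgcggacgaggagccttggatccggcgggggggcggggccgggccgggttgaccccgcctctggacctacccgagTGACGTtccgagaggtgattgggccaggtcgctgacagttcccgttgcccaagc
PMAIP1: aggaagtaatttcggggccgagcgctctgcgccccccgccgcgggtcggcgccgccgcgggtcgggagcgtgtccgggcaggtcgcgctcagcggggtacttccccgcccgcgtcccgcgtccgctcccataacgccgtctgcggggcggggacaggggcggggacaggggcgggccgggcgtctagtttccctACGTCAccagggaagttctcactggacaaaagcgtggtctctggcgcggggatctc

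Each of the members other than MCL1 had at least 1 promoter window in the RefSeq table, from 250 bases before to 50 bases after an annotated start, and 4 of the 5 motifs searched on both strands are given. Their letters were CACGTG for the E-box, TGACGT for the cAMP response element, GTAAACA for forkhead factors and TGANTCA for AP-1. None of the letters searched contains another. The whole BAX window, 300 bases long, held 4 E-boxes, of which 2 lie in the stretch shown. Any E-box was present in 7.26% of 35116 such windows, and 4 or more were present in 0.0142% of them. The TGACGT motif was present in 7.98% of all windows. It was found in both windows of BAD, which overlap and share the site, and in the single window of PMAIP1. These 2 genes moved in opposite directions. The BBC3 window held 1 E-box and 1 AP-1 match (present in 7.71% of all windows), and the BCL2L11 window 1 forkhead match (3.42%). Of 5 BID windows, 2 that overlap each other held 1 E-box each. The windows of BCL2 and BCL2L1 held no match. The motifs were chosen with the results known, and a match describes letters in a window, not binding.

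Among the pro-survival genes, MCL1 and BCL2L1 were abundant and BCL2 was close to the limit of detection, and none was called. BCL2L1 blocks both effectors. It had 133.7 and 136.3 CPM (counts relative to library size, scaled by TMM) in shCon and 139.7 and 156.5 CPM in shUBXN1. The shUBXN1 libraries were higher without overlap, the second of them by most. Its log2 fold change was 0.13 (95% interval -0.03 to 0.30, adjusted p = 0.156 by the quasi-likelihood test of edgeR, Benjamini-Hochberg adjusted). This call turned on the scaling and on 1 library: the log2 fold change was 0.22 (adjusted p = 0.0106) with total count scaling and 0.21 (adjusted p = 0.00575) without shUBXN1 replicate 1, both by edgeR. Exons of BCL2L1 share 41.3% of their bases with ABALON on the opposite strand, which had at most 1.35 counts in any library.

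MCL1, a short-lived protein that restrains BAK1 in particular, was the member with the most counts. Its values were 345.0 and 342.4 CPM in shCon and 369.7 and 371.2 CPM in shUBXN1. Both shUBXN1 libraries lay above both shCon libraries by a small part of the level. MCL1 had a log2 fold change of 0.11 (95% interval -0.05 to 0.26, adjusted p = 0.227 by the quasi-likelihood test of edgeR), and it too passed only with total count scaling (0.19) and with limma on TPM (0.17).

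BCL2, the founding member, had only 22 and 29 counts in the shCon libraries and 35 and 44 in the shUBXN1 libraries. These were 0.825 and 1.23 CPM against 1.41 and 1.88 CPM, so the groups did not overlap but the libraries of a group differed widely. BCL2 had a log2 fold change of 0.68 (SE 0.402, 95% interval -0.18 to 1.54, adjusted p = 0.166 by the quasi-likelihood test of edgeR). At these counts a change of this size could not be told from no change, and 82.7% of all genes tested had a higher mean CPM.

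The effectors differed from each other. BAX (chr19:48954815-48961798, plus strand, GRCh38), the effector that moves from the cytosol to mitochondria, had 1822 and 1896 counts in the shCon libraries and 1090 and 1185 in the shUBXN1 libraries. These were 68.3 and 80.7 CPM in shCon and 44.04 and 50.62 CPM in shUBXN1. Both knockdown libraries were lower than both controls, and the shCon libraries lay farther apart than the shUBXN1 libraries. BAX mRNA fell by 0.65 on the log2 scale (SE 0.0949, 95% interval -0.86 to -0.45, adjusted p = 4.22e-05 by the quasi-likelihood test of edgeR, Benjamini-Hochberg adjusted). A change of at least this size in either direction was seen in 34.3% of all genes tested. No other annotated gene shares exon bases with BAX.

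BAK1, the effector that resides on mitochondria, had 33.9 and 33.3 CPM in shCon and 35.8 and 36.1 CPM in shUBXN1. The shUBXN1 libraries lay just above the shCon libraries. Its log2 fold change was 0.096 (95% interval -0.08 to 0.27, adjusted p = 0.344 by the quasi-likelihood test of edgeR), and removing the trend on GC content turned it to -0.01.

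**Figure D1:**
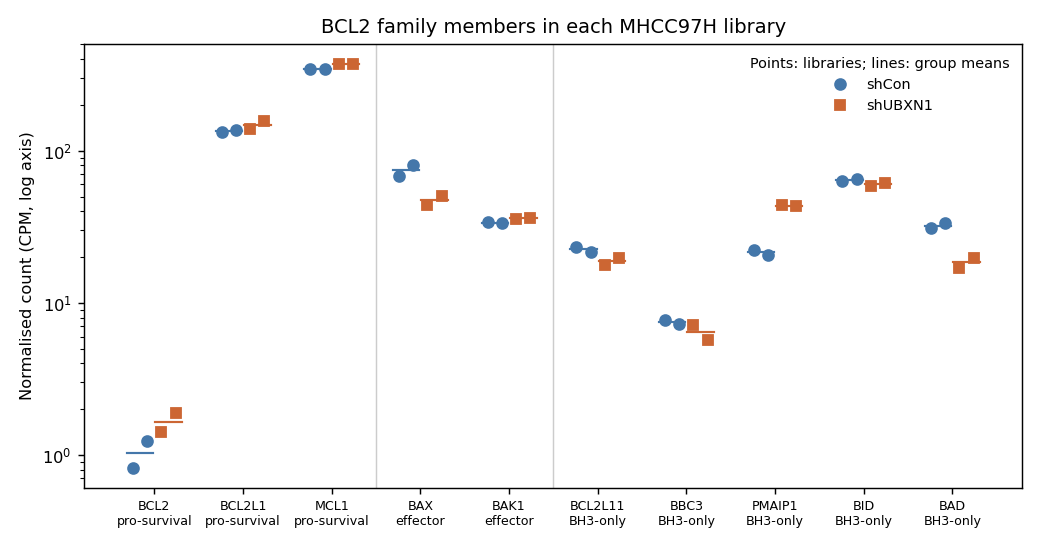
Normalised counts of the 10 members in each library, in CPM scaled by TMM on a log axis. Circles are the 2 shCon libraries, squares the 2 shUBXN1 libraries and short lines the group means, and vertical lines separate pro-survival genes, effectors and BH3-only genes. BAX and BAD sit lower and PMAIP1 higher in shUBXN1, from 21.5 to 43.6 CPM on average for PMAIP1.

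The BH3-only genes moved in both directions, with 1 of 5 called higher, 2 called lower and 2 not called. Over all genes tested, 28% were called higher and 28.2% lower. PMAIP1 (chr18:59899996-59904305, plus strand, GRCh38) encodes NOXA, which binds MCL1 above all and promotes its breakdown. It had 595 and 487 counts in the shCon libraries and 1093 and 1007 in the shUBXN1 libraries, or 22.3 and 20.7 CPM against 44.2 and 43.0 CPM. The libraries within a group lay close together and the groups were far apart. PMAIP1 mRNA rose by 1.02 on the log2 scale (SE 0.0887, 95% interval 0.83 to 1.21, adjusted p = 3.02e-07 by the quasi-likelihood test of edgeR, Benjamini-Hochberg adjusted). This was the largest absolute change of the 10 members, and 18.6% of all genes tested changed by at least as much. The fold of 2.02 lay just past the fold threshold of 2. The estimate was below that threshold without shCon replicate 2 (0.95 on the log2 scale) and without shUBXN1 replicate 1 (0.99). With all libraries kept, it was also below the threshold with limma on log2(CPM + 1) (0.986).

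BAD (chr11:64269830-64284704, minus strand, GRCh38) encodes a sensor of growth factor signalling that AKT and PIM kinases keep inactive by phosphorylation. It had 824 and 781 counts in the shCon libraries and 422 and 463 in the shUBXN1 libraries, or 30.9 and 33.2 CPM against 17.0 and 19.8 CPM. Every knockdown library lay below every control library. BAD mRNA fell by 0.80 on the log2 scale (SE 0.104, 95% interval -1.02 to -0.58, adjusted p = 1.45e-05 by the quasi-likelihood test of edgeR, Benjamini-Hochberg adjusted). Exons of BAD share 23.7% of their bases with GPR137 on the opposite strand. GPR137 had 478 and 449 counts in the shCon libraries and 617 and 619 in the shUBXN1 libraries, the opposite direction to BAD. Whether strand was used in counting is not given in the sources used here, so reads in the shared bases cannot be assigned with certainty.

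BCL2L11 encodes BIM, which binds every pro-survival member. It had 23.4 and 21.5 CPM in shCon and 17.8 and 19.6 CPM in shUBXN1. The knockdown libraries were lower, without overlap. The log2 fold change of BCL2L11 was -0.27 (SE 0.106, adjusted p = 0.0456 by the quasi-likelihood test of edgeR, Benjamini-Hochberg adjusted). The call did not pass with DESeq2 (adjusted p = 0.1495), with total count scaling in edgeR (adjusted p = 0.148), without shCon replicate 1 (-0.20, adjusted p = 0.288 in edgeR), without shCon replicate 2 (-0.34, adjusted p = 0.0681 in edgeR) or without shUBXN1 replicate 1 (-0.20, adjusted p = 0.148 in edgeR). Exons of BCL2L11 share 10.8% of their bases with MIR4435-2HG on the opposite strand, which had between 1555 and 2034 counts in the 4 libraries against 440 to 624 for BCL2L11.

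BBC3 encodes PUMA, which can bind every pro-survival member. It had 207 and 171 counts in the shCon libraries and 178 and 134 in the shUBXN1 libraries, or 7.76 and 7.28 CPM against 7.19 and 5.72 CPM. The first shUBXN1 library almost reached the controls. The log2 fold change was -0.22 (95% interval -0.60 to 0.16, adjusted p = 0.309 by the quasi-likelihood test of edgeR), whereas with the trend on GC content removed it was -0.50 (adjusted p = 0.0238, edgeR). BBC3 had the highest GC content of the members, at 69.7% of its longest annotated transcript.

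BID, which caspase-8 cleaves to its active form, had 63.6 and 65.6 CPM in shCon and 58.8 and 61.6 CPM in shUBXN1. The shUBXN1 libraries lay just below the shCon libraries. Between the groups, BID had a log2 fold change of -0.10 (95% interval -0.26 to 0.06, adjusted p = 0.270 by the quasi-likelihood test of edgeR). The log2 fold change of CASP8, the protease upstream of BID, was 0.14 (adjusted p = 0.153, edgeR). Limma on log2(TPM + 0.1) was not read for CASP8. Among the other settings, CASP8 passed only with total count scaling (0.22, adjusted p = 0.0197, edgeR) and with limma on log2(TPM + 1) (0.19, adjusted p = 0.0375).

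GC content differed among the members that moved. GC content was taken from the longest annotated transcript of each gene. It was 58.9% in BAX and 66.3% in BAD, which fell. It was 36.7% in PMAIP1, which rose and had the lowest GC content of the 10. Over all genes tested, the fitted trend ran the other way, from -0.05 on the log2 scale at 40% GC to 0.12 at 60%. With that trend removed, the log2 fold change was -0.76 for BAX, -1.02 for BAD and 1.08 for PMAIP1, each farther from 0 than without the correction.

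**Figure D2:**
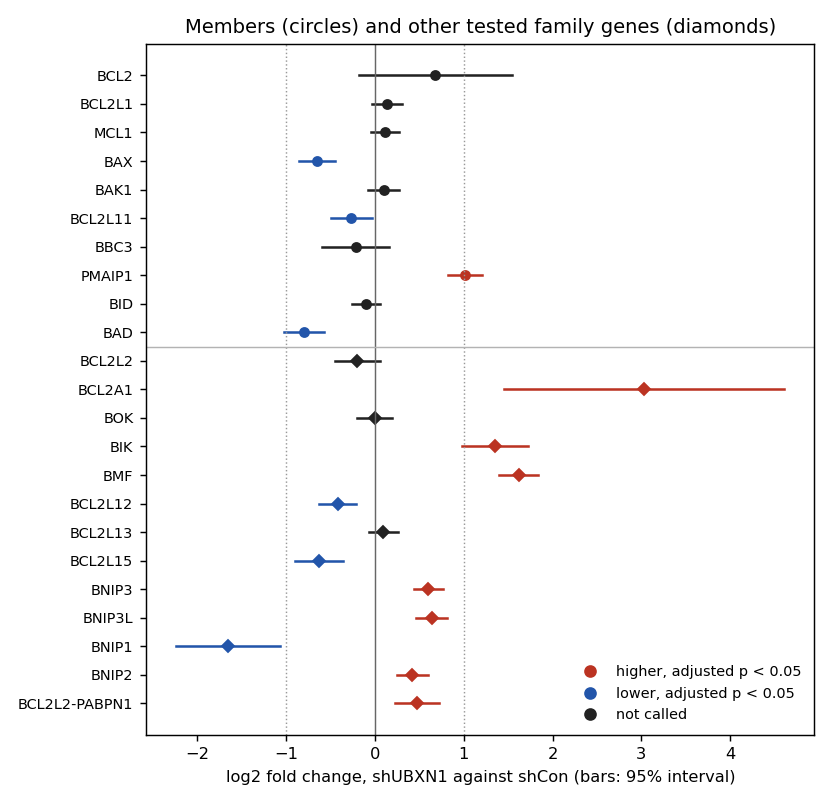
Log2 fold change in shUBXN1 against shCon of the 10 members (circles, above the line) and of 13 tested family genes outside the list (diamonds), with 95% intervals. Red is called higher and blue called lower at an adjusted p of 0.05, black is not called, and dotted lines mark a fold change of 2. PMAIP1 at 1.02 and BMF at 1.62 lie to the right, and BAD at -0.80 and BNIP1 at -1.66 to the left.

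Levels were compared between genes per length of transcript, in TPM with the lengths given in the file. In shCon the order was BCL2L1 (209 ± 1.63 TPM, SD, n = 2), MCL1 (175 ± 4.62), BAX (110 ± 10.6), BAD (55.6 ± 1.68), BID (51.9 ± 0.0040), PMAIP1 (34.2 ± 2.51), BAK1 (31.1 ± 1.04), BCL2L11 (8.84 ± 0.716), BBC3 (8.26 ± 0.551) and BCL2 (1.09 ± 0.283). Only BCL2L11 and BBC3 overlapped as neighbours in that order. In shUBXN1, PMAIP1 (72.2 ± 5.14 TPM) stood beside BAX (72.7 ± 3.33 TPM), and the libraries of the pair overlapped, as did those of BCL2L11 and BBC3. BAD (33.2 ± 1.76 TPM) had moved below BID (50.4 ± 1.01 TPM) to a level that overlapped that of BAK1 (34.6 ± 1.61 TPM). The order depended in part on the lengths: with exon lengths from GENCODE 44, tried after the data were seen, MCL1 lay above BCL2L1 in both groups, with log2 ratios of BCL2L1 to MCL1 of -0.78 in shCon and -0.76 in shUBXN1. With those lengths in shUBXN1, PMAIP1 (68.8 ± 5.41 TPM) lay above BAX (62.9 ± 2.41 TPM) and BAD (37.1 ± 1.69 TPM) below BAK1 (56.0 ± 3.03 TPM), both without overlap.

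Summed by role, the pro-survival transcripts came to 389 and 381 TPM in shCon and 439 and 435 TPM in shUBXN1. The effector transcripts came to 134 and 148 TPM in shCon and 106 and 108 TPM in shUBXN1. The BH3-only transcripts came to 160 and 157 TPM in shCon and 175 and 167 TPM in shUBXN1. With the lengths given in the file, the groups did not overlap in any of these 3 sums, which are levels and were not tested. With the exon lengths from GENCODE, the groups overlapped in the BH3-only sum but not in the pro-survival and effector sums. As a share of the TPM of all 10 members, BAX made up 15.0% and 17.1% in shCon and 9.76% and 10.6% in shUBXN1. PMAIP1 made up 5.26% and 4.73% in shCon and 10.54% and 9.66% in shUBXN1. With the lengths given in the file, BCL2L1 and MCL1 were the main part in every library, at 30.4% to 34.3% and 25.0% to 28.2%. The shares depend on the lengths. With the exon lengths from GENCODE, MCL1 averaged 190 TPM, BCL2L1 111 TPM and BAX 99.1 TPM in shCon. In shUBXN1 these lengths gave 205 TPM for MCL1, 122 TPM for BCL2L1 and 62.9 TPM for BAX.

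**Figure D3:**
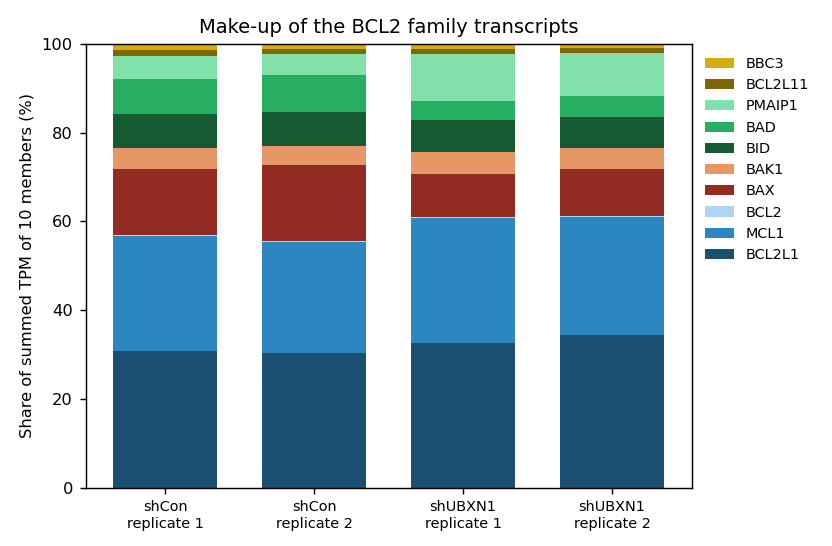
Share of each member in the summed TPM of the 10 members, with the lengths given in the file, 1 bar per library. Blue shades are pro-survival genes, red and orange the effectors, and green, brown and yellow the BH3-only genes. The BAX segment is narrower in the shUBXN1 bars (9.76% and 10.6%) than in the shCon bars (15.0% and 17.1%), and the PMAIP1 segment is wider.

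Ratios of members within a library do not depend on how libraries are scaled to each other. Their size depends on the gene lengths, here those in the file, but their change between the groups does not. The ratio of BAX to BCL2L1 in TPM was 0.486 and 0.564 in shCon and 0.300 and 0.308 in shUBXN1, a change of -0.79 on the log2 scale. The groups did not overlap. The ratio of BAX to MCL1 was 0.576 and 0.686 in shCon and 0.347 and 0.397 in shUBXN1, a change of -0.76 on the log2 scale, again without overlap. For BAX to BCL2 the change was -1.35 on the log2 scale, with the low counts of BCL2 in the denominator. BAK1 to BAX changed by 0.75 on the log2 scale, from 0.310 and 0.258 in shCon to 0.508 and 0.446 in shUBXN1, so BAK1 made up more of the effector transcripts. BCL2L1 to MCL1 was 1.18 and 1.22 in shCon and 1.16 and 1.29 in shUBXN1, where the groups overlapped. No test was run on these ratios; an exact two-sided permutation test of 2 libraries against 2 gives no p under 0.333.

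**Figure D4:**
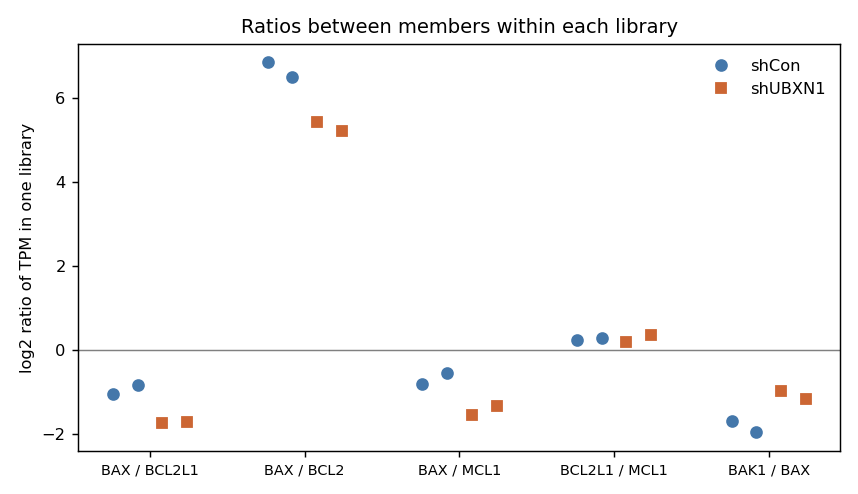
Log2 ratio of the TPM of 2 members in each library, circles for shCon and squares for shUBXN1. The ratios of BAX to BCL2L1, BCL2 and MCL1 are lower and that of BAK1 to BAX is higher in both shUBXN1 libraries, whereas the groups overlap for BCL2L1 to MCL1.

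Of 16 further genes of the family or its relatives, 13 were tested. Leaving out BCL2A1, which passed the filter only through the shUBXN1 libraries, 6 of 12 were called higher (28% of all genes tested), 3 were called lower (28.2% of all genes tested) and 3 were not called, with a median log2 fold change of 0.26. BMF, a BH3-only gene whose protein is tied to the cytoskeleton, had 457 and 344 counts in the shCon libraries and 1282 and 1072 in the shUBXN1 libraries (log2 fold change 1.62, SE 0.104, adjusted p = 1.58e-08 by the quasi-likelihood test of edgeR). BIK, a BH3-only gene of the endoplasmic reticulum, had 102 and 94 counts in the shCon libraries and 232 and 247 in the shUBXN1 libraries (log2 fold change 1.35, SE 0.174, adjusted p = 1.45e-05, edgeR). Together with HRK, which had at most 2 counts in any library, these BH3-only genes outside the 10 summed to 15.7 and 14.5 TPM in shCon and 45.3 and 42.0 TPM in shUBXN1. BCL2A1, a pro-survival gene and known NF-κB target, had 1 and 4 counts in the shCon libraries and 14 and 27 in the shUBXN1 libraries. Its log2 fold change was 3.03 (95% interval 1.45 to 4.61), and it was not called without shCon replicate 1 (2.29) or without shUBXN1 replicate 2 (2.42).

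The mitophagy receptors BNIP3 and BNIP3L rose by 0.60 and 0.64 on the log2 scale, and BNIP2 rose by 0.42. Exons of BNIP3L share 7.95% of their bases with PNMA2 on the opposite strand. PNMA2 had 88.0 and 93.5 counts in shCon and 501 and 461 in shUBXN1, the same direction as BNIP3L. BNIP1, a relative that acts in vesicle transport, had 159 and 132 counts in the shCon libraries and 34 and 54 in the shUBXN1 libraries and fell by 1.66 on the log2 scale. BCL2L15 fell by 0.63 and BCL2L12 fell by 0.42 on the log2 scale. Exons of BCL2L12 share 25.9% of their bases with IRF3 on the opposite strand. IRF3 had 1920 and 1807 counts in shCon and 1565 and 1343 in shUBXN1, the same direction as BCL2L12. The read-through gene BCL2L2-PABPN1 was called higher (0.47 on the log2 scale) but shares exons with both of its parts, so its counts and those of BCL2L2 are uncertain, and its call was lost without shCon replicate 2 (0.34). BCL2L2 (-0.20 on the log2 scale), BOK (-0.0026) and BCL2L13 (0.095) were not called in the reported fit. BCL2L2 was called without shUBXN1 replicate 1 (-0.37), and BCL2L13 with total count scaling (0.18). BCL2L10 and BCL2L14 had at most 12 and 6 counts in any library and were not tested.

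Downstream of the pores, 11 genes of the apoptosome and of proteins released from mitochondria were tested. In that list 1 was called higher, 4 were called lower and 6 were not called, beside 28% higher and 28.2% lower over all genes tested, with a median log2 fold change of -0.06. HTRA2, a released protease that degrades inhibitors of apoptosis, rose by 1.22 on the log2 scale, and 27.5% of its exon bases are shared with LOXL3 on the opposite strand, which had at most 35 counts. AUP1, also on the opposite strand, shares 4.85% of them and had 2717 and 2508 counts in shCon against 1987 and 1865 in shUBXN1, the opposite direction to HTRA2. CASP6, an executioner caspase, fell by 0.53, XIAP, a direct caspase inhibitor, fell by 0.49, and CYCS, which encodes cytochrome c, fell by 0.44 on the log2 scale. These members act in opposite ways in the pathway.

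Of 11 regulators of the transcription of family members, TP73 passed the filter only through shUBXN1. Among the other 10, 3 were called higher (28% of all genes tested), 5 were called lower (28.2% of all genes tested) and 2 were not called, with a median log2 fold change of -0.11. STAT3, which is known to activate BCL2L1 and MCL1, rose by 1.26 on the log2 scale, from 100 ± 3.45 CPM in shCon to 241 ± 7.16 CPM in shUBXN1 (SD, n = 2). RELA, a subunit of NF-κB, rose by 0.31 on the log2 scale but was not called without shCon replicate 1 (0.25). TP73 had 1 and 4.11 counts in the shCon libraries and 14 and 23.4 in the shUBXN1 libraries. Exons of TP73 share 9.35% of their bases with TP73-AS1 on the opposite strand. TP73-AS1 had 425 and 414 counts in shCon and 696 and 575 in shUBXN1, so the few counts of TP73 are uncertain. The log2 fold change of TP73 was 2.88, which was not called without shCon replicate 1 (2.15), without shUBXN1 replicate 2 (2.42) or with limma on log2(TPM + 1) (0.33). E2F1 and MYC, both drivers of growth that can also raise BH3-only genes, each fell by 1.04 on the log2 scale, and ATF4, a stress factor, fell by 0.42.

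Of 16 regulators of the family's proteins, 5 were called higher, 4 were called lower and 7 were not called, beside 28% higher and 28.2% lower over all genes tested, with a median log2 fold change of 0.02. USP13, a deubiquitinase known to stabilise MCL1, fell from 43.2 ± 0.804 CPM in shCon to 21.6 ± 1.11 CPM in shUBXN1 (SD, n = 2; adjusted p = 3.59e-07, edgeR), and 16.1% of its exon bases are shared with another annotated gene on the same strand. PIM3, a kinase that phosphorylates BAD, fell by 0.89, and BAG3, a chaperone partner, fell by 0.68 on the log2 scale. MAPK8, which encodes the stress kinase JNK1, rose by 0.44 but was not called without shUBXN1 replicate 2 (0.26), while PIM1 rose by 0.40 and AKT2 by 0.33 on the log2 scale. VDAC2, the membrane channel that recruits BAK1 and BAX, had a log2 fold change of -0.15 (adjusted p = 0.139, edgeR) and was called lower without shUBXN1 replicate 2 (-0.29).

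The calls of BAX, BAD and PMAIP1 held in all 16 alternatives for scaling, test, filter, GC content, replicate block and left-out library. Across these, the log2 fold change ranged from -0.77 to -0.55 for BAX, from -1.02 to -0.70 for BAD and from 0.95 to 1.10 for PMAIP1.

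**Figure D5:**
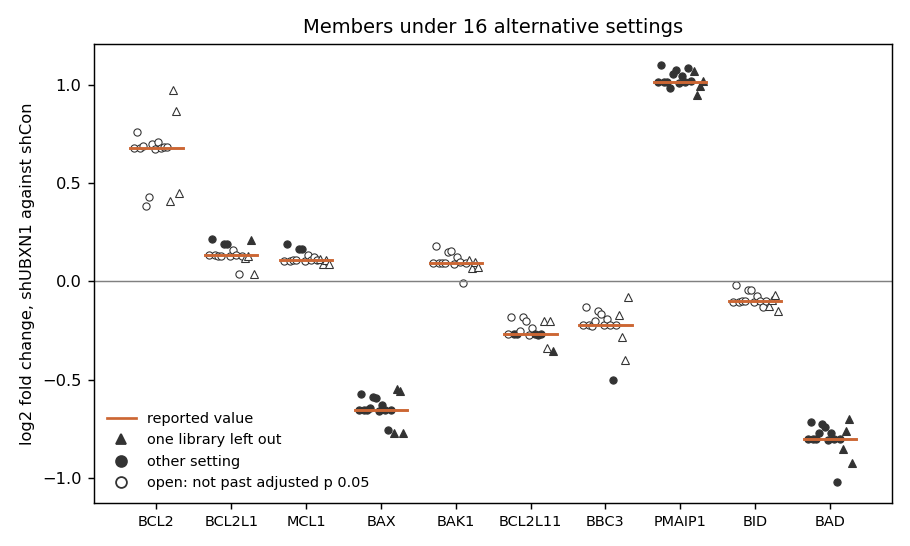
Log2 fold change of each member, shUBXN1 against shCon, under 16 alternative settings. Horizontal lines are the reported values, triangles leave out 1 library, circles change another setting, and open symbols did not pass an adjusted p of 0.05. BAX, BAD and PMAIP1 have closed symbols only, and BCL2L11 has 6 closed and 10 open symbols.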

How the data were processed

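RNA from 4 MHCC97H libraries, 2 shCon and 2 shUBXN1, was sequenced in paired ends. Expected counts of each gene, without normalization, were deposited together with a gene length; 62.4% to 64.6% of values above 0 were exactly whole as written in the file. The study's methods name GRCh38 and Hisat2, whereas the submitters' processing notes name GRCh37, HISAT2 2.0.4 and StringTie 1.3.0. The counting tool, the annotation and the use of strand are not given in the sources used here. Coordinates and exon overlaps are from GENCODE 44 on GRCh38.

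Counts were rounded, filtered with filterByExpr (minimum count 10), scaled by TMM and tested by quasi-likelihood (glmQLFit, glmQLFTest; edgeR 4.0.16, R 4.3.3), with Benjamini-Hochberg adjustment over all genes tested; the code was tested on simulated data. Standard errors were derived from each log2 fold change and its F statistic. TPM used the lengths in the file. Of 61541 IDs, 99.7% matched a symbol. Replicates differed beyond counting noise (chi-square per degree of freedom 3.79 and 8.37), and none was a duplicate.

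Alternatives were DESeq2 1.42.0, total count and RLE scaling, limma 3.58.1 on voom weights, log2(CPM + 1), log2(TPM + 1) and log2(TPM + 0.1), 2 other filters, unrounded counts, GC trend removal, a replicate block, a fold of 1.5 and each library left out. The paper tested TPM with limma, which is kept here as an alternative because the deposited values are counts. Named were all members, all tested relatives and, from each other list, up to 3 called genes with the largest rise and fall, plus genes named for their role. The members and lists were chosen with earlier results of these data known. Some genes, 1 list of target genes and 1 motif are not reported here.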

Additional observations from a re-analysis of the deposited data

How the results depend on the processing

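With 2 libraries per group and 2 residual degrees of freedom, the spread of each gene was largely borrowed from other genes. Nothing states whether libraries of the same replicate number were made together. Their deviations correlated at 0.039, which cannot settle this. The fit with a replicate block called 5000 genes higher and 5023 lower at the adjusted p. At a fold of 2 it called 2011 higher and 1026 lower, and it changed the call of no member. With total count scaling, the median over all genes tested was 0.10 on the log2 scale instead of 0.016, which moved the share of higher calls at a fold of 2 from 66.0% to 72.6%.

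Members called higher at the adjusted p numbered 3 with total count scaling, limma on log2(TPM + 1) and limma on log2(TPM + 0.1), and 1 to 2 with each library left out. In those 3 settings the log2 fold change was 0.22, 0.19 and 0.19 for BCL2L1 and 0.19, 0.17 and 0.17 for MCL1, and with each library left out that of BCL2L1 ranged from 0.035 to 0.21. BCL2L11 did not pass with DESeq2 (-0.27), total count scaling (-0.18), limma on log2(CPM + 1) (-0.25), log2(TPM + 1) (-0.18) and log2(TPM + 0.1) (-0.20), no filter (-0.27) and at least 10 counts in every library (-0.24), and ranged from -0.35 to -0.20 with each library left out. With the GC trend removed, BBC3 passed at -0.50, the BCL2L1 to MCL1 ratio changed by -0.086 and 1 member was lower at a fold of 2.

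At a fold of 2, limma on log2(CPM + 1) called 1005 genes higher, 632 lower and 0 members higher, limma on log2(TPM + 1) gave 1028 higher and 524 lower genes, and at least 10 counts in every library left 1321 higher. Members higher at a fold of 2 numbered 0 to 1 with each library left out. A fold of 1.5 gave 3201 genes higher, 2435 genes lower and 2 members lower. With GENCODE lengths, added after seeing the data, the level of BCL2L1 over MCL1 turned to -0.78 in shCon and -0.76 in shUBXN1. The cause of these differences was not tested beyond the thresholds and lengths that define them.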
